A study of Mus musculus with 2 samples.

Results

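Small nucleolar RNA (snoRNA) genes were examined in RNA from Lin- Sca-1+ c-Kit+ (LSK) bone marrow cells, a sorted fraction with the blood-forming stem and early progenitor cells. The members were all rows of the deposited count table that the GENCODE M21 annotation classes as snoRNA and they were selected on their summed count, 20 or more over both libraries. This gave 122 genes out of 1484 snoRNA genes in the table and 39017 genes in all. One library came from miR-146a-/- mice (a pool of 6) and the other from WT mice (a pool of 12), all of the C57BL/6J background and 10 to 14 weeks old. RNA was total RNA depleted of ribosomal RNA. With 1 library from 1 pool per genotype no difference has a replicate check, each statement compares these libraries, and fewer cells of a type cannot be told apart from less RNA per cell.

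The snoRNAs fall into 2 families that guide chemical modification of ribosomal RNA in the nucleolus. Box C/D snoRNAs, with Snord symbols in the mouse, direct ribose methylation by fibrillarin, and box H/ACA snoRNAs, with Snora symbols, direct pseudouridylation by dyskerin. A few, such as the U3 and U8 RNAs, serve cleavage of the ribosomal precursor instead. Most mammalian snoRNAs lie in introns of host genes, many of which encode ribosomal proteins or non-coding snoRNA host transcripts, and are trimmed from the spliced intron, so the levels of host transcript and snoRNA can differ.

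The sequences below are GENCODE M21 transcripts on mm10, written as DNA. Gm24339 and Gm24357 are shown as the members with the most counts, Snord49b and Snord49a as C/D genes of 1 host with high ratios, Gm22748 and Snora28 as genes with an ACA called higher, and Snora73b and Snora57 as Snora genes with intervals wholly below 0. In the first 4 lines the capitals mark the first TGATG, the letters of a C box core, and the last CTGA, those of a D box. Gm24357 and Snord49b hold another TGATG a few bases on, so the marked one need not be the working C box. In the other lines the capitals mark the ACA near the 3′ end. Gm24339 lies at chr9:15326464-15326539 on the minus strand and Gm24357 at chr9:15315522-15315595 on the plus strand. Snord49b lies at chr11:62603079-62603150 and Snord49a at chr11:62603450-62603521, both on the plus strand. Gm22748 lies at chr12:17546146-17546281 and Snora28 at chr12:111540941-111541067, both on the plus strand. Snora73b lies at chr4:132352322-132352526 and Snora57 at chr19:8888538-8888685, both on the minus strand.
Gm24339: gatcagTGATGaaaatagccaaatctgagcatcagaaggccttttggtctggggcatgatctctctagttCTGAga
Gm24357: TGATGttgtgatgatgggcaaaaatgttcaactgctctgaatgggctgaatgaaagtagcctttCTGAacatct
Snord49b: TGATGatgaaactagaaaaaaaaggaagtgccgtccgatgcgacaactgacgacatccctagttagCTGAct
Snord49a: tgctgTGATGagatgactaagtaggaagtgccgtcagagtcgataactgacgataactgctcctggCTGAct
Gm22748: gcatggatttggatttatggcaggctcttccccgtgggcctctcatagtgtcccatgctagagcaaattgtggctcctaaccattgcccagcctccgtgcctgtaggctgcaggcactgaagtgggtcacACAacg
Snora28: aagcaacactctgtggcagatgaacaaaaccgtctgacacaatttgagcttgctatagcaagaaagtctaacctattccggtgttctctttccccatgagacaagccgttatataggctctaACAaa
Snora73b: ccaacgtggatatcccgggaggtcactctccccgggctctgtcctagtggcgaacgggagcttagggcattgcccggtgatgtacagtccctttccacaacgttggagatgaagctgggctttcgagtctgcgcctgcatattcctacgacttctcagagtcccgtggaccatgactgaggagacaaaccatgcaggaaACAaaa
Snora57: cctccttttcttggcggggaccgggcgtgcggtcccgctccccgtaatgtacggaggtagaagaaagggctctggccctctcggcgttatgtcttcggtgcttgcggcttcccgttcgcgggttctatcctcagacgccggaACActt

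The miR-146a-/- library held 22231389 counts and the WT library 35069136. The gene of the deleted microRNA, Mir146, had 0 counts in both libraries, so it does not check the genotype labels. All 8 LSK markers, among them Kit, Ly6a and Flt3, were measured in both. Of 9 lineage markers that the sort should remove, 6 had fewer than 20 counts summed over both libraries, and Cd3e and Cd8a had 0 in each. The 3 that were measured (Cd4, Itgam and Klrb1c) summed to 62.7 normalised CPM (counts scaled to a common library size by TMM) in the miR-146a-/- library and 38.7 in the WT library; their part in the results below was not tested.

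Most snoRNA genes had a ratio of miR-146a-/- over WT above 0 on the log2 scale after TMM scaling, which sets the bulk of genes near 0. A call of higher or lower required that the entire 95% counting interval of a ratio exceed 1.5-fold. Of 122 members, 15 were higher, 0 lower and 107 neither, where 5.35% of all 13880 measured genes were higher and 1.53% lower (6.87% in either direction). The higher genes made 12.3% of the members, a share that the selection and the counts behind each gene bear on, as given below. Measured lincRNA genes were higher in 16.9% of 213 cases and snRNA genes in 14.7% of 34. The median log2 ratio of miR-146a-/- over WT was 0.43, with 86 members above 0 and 36 below, and the median over all measured genes was -0.01. Members summed to 662 normalised CPM in the miR-146a-/- library and 431 in the WT library, a log2 ratio of 0.62 (0.58 to 0.65). The 3 members with the most counts (Gm24357, Gm24339 and Scarna10) held 49.4% of the members' counts in miR-146a-/- and 38.9% in WT, and without them the log2 ratio was 0.35 (0.30 to 0.39). Summed in the same way, all measured genes had a log2 ratio of 0.82 and measured protein-coding genes 0.16. Genes other than snoRNA with 20 to 200 counts had 0.30.

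Depth set much of what could be called. The median member had 49 counts over both libraries, and 82 of the intervals covered 0. Among members with 20 to 200 counts, 9 of 102 were higher (8.82%) and 0 lower. Their median was 0.45. Other measured genes in that count range were higher in 9.57% of 3050 cases and lower in 1.48%, with a median of 0.24. The share of higher calls at this depth was thus near that of other genes. Among the 20 members with over 200 counts, 6 were higher (30%) and 0 lower, and the median was 0.14. Other measured genes with over 200 counts were higher in 4.06% of 10708 cases and lower in 1.56%, with a median of -0.04. The count threshold of the selection also favours genes that are high in at least 1 library. Just inside it, at 20 counts, stood 6 genes with ratios from -0.49 (Gm25788) to 2.26 (Gm22806). Just outside, at 19 counts, stood Gm25053 at -0.01 and Snora16a and Gm26202 at -0.88.

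The direction depends on the scaling, since TMM gave library sizes with a log2 ratio of -1.48 where the plain totals gave -0.66. By total counts the member median was -0.38, with calls of higher for 2 genes (Gm22748 and Gm24339) and of lower for 11 (among them Scarna10, Snora73b and Snora57), and the median of all measured genes was -0.83. The distance between these medians, 0.45, is by construction nearly the same under any scaling of whole libraries. As a share of all counts, snoRNA genes of any count made 0.0513% of the miR-146a-/- library and 0.0595% of the WT library. These totals are shaped by a single gene, Gm42418, which held 27.2% of all counts in the miR-146a-/- library and 2.13% in the WT library. The annotation classes it as lincRNA, and what RNA its reads come from was not examined. Of 6 measured rRNA genes 4 were higher and 0 lower, where 5.35% of all measured genes were higher. Those 6 summed to 589 counts in miR-146a-/- and 109 in WT, a log2 ratio of 3.90. Protein-coding genes held 51.5% of all counts in the miR-146a-/- library and 81.4% in the WT library.

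**Figure D1:**
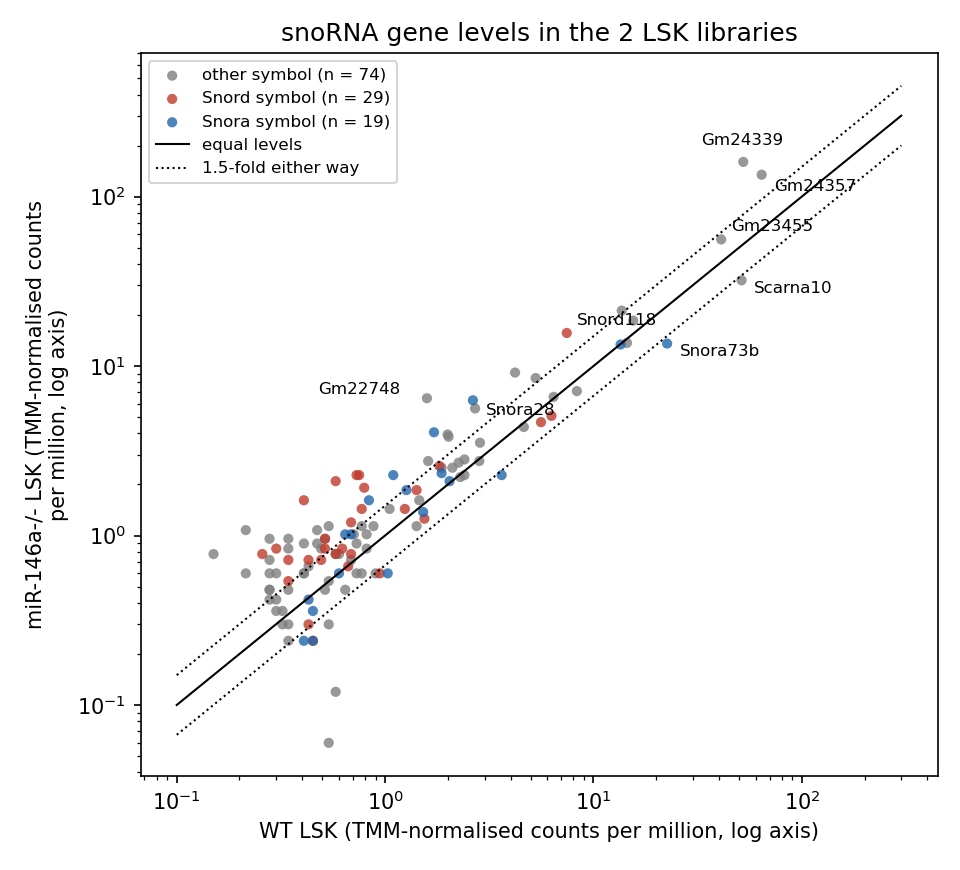
TMM-normalised CPM of the 122 snoRNA genes, miR-146a-/- LSK on the vertical axis against WT LSK on the horizontal axis (both log axes), with each point 1 gene. Most points lie above the line of equal levels, with Gm24339 and Gm24357 at the upper right and Scarna10 and Snora73b below the line.

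By symbol, Snord genes stood highest. Of 29 Snord genes, 5 were higher and 0 lower, where the median ratio was 0.63, in a range from -0.87 to 1.95. Of 19 Snora genes, 2 were higher and 0 lower. Their median was -0.01 and their range -0.87 to 1.25. The other 74 members carry other symbols, chiefly the Gm names of predicted genes, and 8 of them were higher and 0 lower. Their median was 0.43. The Snora median lay 0.63 below the Snord median on the log2 scale, a difference that comes with no replicate error. Among members with at least 200 counts it was -0.078, with 3 Snord genes at a median of -0.26 and 4 Snora genes at -0.34. It was -0.54 among members with a host and -0.73 in the same range of length, where 19 Snora and 2 Snord genes were left.

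Box letters in the sequence allowed a second look at the genes without a class in their symbol. The search, on the transcript strand, took TGATG in the first 25 bases with CTGA in the last 25, or ACA ending 2 to 4 bases before the end. Of Snord genes, 23 of 29 held the C and D letters, and 0 of 19 Snora genes did. The ACA was found in 19 of 19 Snora genes and in 2 Snord genes. Over all 1507 annotated snoRNA genes 362 held the C and D letters (24.02%) and 655 the ACA (43.5%). Among the 74 members with other symbols, 22 held the C and D letters alone, with a median ratio of 0.49, and 36 the ACA alone, with a median of 0.44. The remaining genes held both (6 genes) or neither (10 genes). The genes with both had a median of 0.72 and those with neither a median of 0.09. Over all 122 members, by letters and not by symbol, the medians lay closer together. They were 0.42 for 43 genes with the C and D letters alone and 0.32 for 55 with the ACA alone. Among Snord genes, the 21 with the C and D letters alone had a median of 0.41, and 2 were higher. The 6 Snord genes with neither had a median of 1.30, and 3 were higher.

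**Figure D2:**
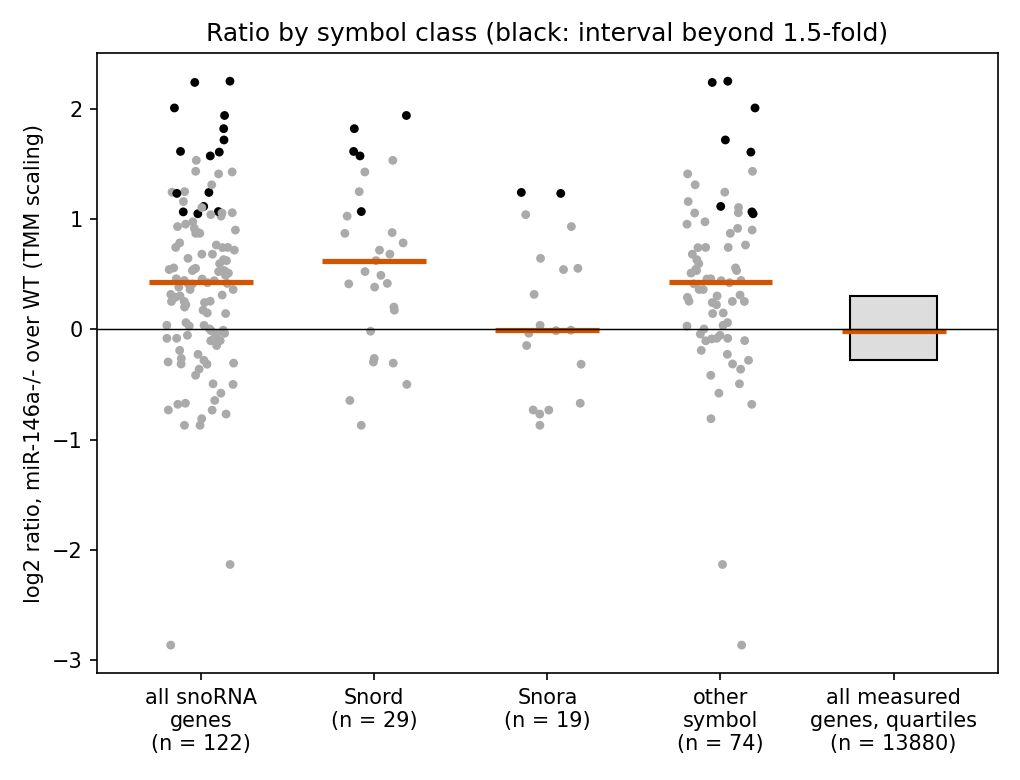
Log2 ratio of miR-146a-/- over WT for each snoRNA gene (points; black where the whole counting interval lies beyond 1.5-fold), by symbol class, with the median as an orange bar and the quartiles of all 13880 measured genes as a box at the right. The Snord median is 0.63 and the Snora median -0.01.

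Among C/D genes named by symbol, the highest were short RNAs of low count. Snord61, held by Rbmx on the X chromosome, had 27 counts in the miR-146a-/- library and 19 in the WT library, a log2 ratio of 1.95 (1.09 to 2.91). Snord85 had 35 counts in the miR-146a-/- library and 27 in WT (1.83, 1.09 to 2.63). Both had slightly more raw counts in the miR-146a-/- library, and both calls rest on TMM scaling, since neither was made by total counts. The Snord49b and Snord49a genes share the non-coding host 2410006H16Rik and 69.4% of their bases. Snord49b had 38 counts in miR-146a-/- and 34 in WT (1.62, 0.93 to 2.35), and Snord49a had 32 in miR-146a-/- and 37 in WT (1.25, 0.54 to 1.99), just short of the call.

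Among H/ACA genes named by symbol, 2 were called higher. Snora28, in Eif5, which encodes a translation initiation factor, had 6.28 normalised CPM (105 counts) in the miR-146a-/- library and 2.64 (123 counts) in WT, a ratio of 1.25 (0.86 to 1.64). Snora24, in Snhg8, had 68 counts in miR-146a-/- and 80 in WT (1.24, 0.76 to 1.73). Snhg8 itself has no value here. The Eif5 transcript stood at 0.14, and Snora28 overlaps an annotated exon of it.

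Gm22748 had the interval farthest above 0 among the members with at least 50 counts. It had 6.46 normalised CPM (108 counts) in the miR-146a-/- library and 1.59 (74 counts) in WT, a ratio of 2.01 (1.58 to 2.47). Its host Odc1, the first enzyme of polyamine synthesis, was at 0.59. Gm25117, in the histone chaperone gene Nap1l1, was at 1.05 (0.66 to 1.45) with its host at -0.38. Gm23130, in the ribosomal protein gene Rps12, had 9.15 normalised CPM in miR-146a-/- and 4.20 in WT (1.12, 0.81 to 1.43), with the host at -0.18. Gm23245, Gm23734 and Gm22806, also called higher, had 20 to 29 counts over both libraries, and Gm22806 has a copy of 97.1% identity.

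No member was called lower, but 5 had intervals wholly below 0. Scarna10, a guide RNA of the Cajal body by its symbol and 325 bases long, had 32.0 normalised CPM (536 counts) in the miR-146a-/- library and 51.4 (2394 counts) in WT. Its ratio was -0.68 (-0.82 to -0.54), while its host Ncapd2, a condensin subunit gene, was at -0.02. Scarna10 overlaps exons of Ncapd2 and of Gm28967. Snora73b had 227 counts in miR-146a-/- and 1052 in WT (-0.73, -0.95 to -0.53), and Snora57 had 38 in miR-146a-/- and 169 in WT (-0.67, -1.22 to -0.16). Snora57 has a copy, Gm26132, of 95.9% identity, and Snora73b lies over an exon of Gm17300. The other pair had few counts in the miR-146a-/- library. Gm23946 had 1 count there and 25 in WT (-2.87, -8.52 to -0.55), and Gm22154 had 2 there and 27 in WT (-2.14, -5.39 to -0.28).

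A pair of neighbouring genes on chromosome 9 held much of the snoRNA signal. Taf1d, which encodes a subunit of the RNA polymerase I selectivity factor, holds 8 members, and Cep295, a centriole protein gene on the opposite strand, holds Gm24339 and Scarna9. Gm24339 had 2106 normalised CPM per kilobase (2677 counts) in the miR-146a-/- library and 689 (2440 counts) in WT, a ratio of 1.61 (1.53 to 1.69). Gm24357 had 1818 normalised CPM per kilobase (2250 counts) in miR-146a-/- and 866 (2989 counts) in WT, a ratio of 1.07 (0.99 to 1.15). They were the most abundant members per length.

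Other RNAs of the same hosts had lower ratios. Gm23455, the third most abundant per length, had 558 normalised CPM per kilobase in miR-146a-/- and 410 in WT (0.45, 0.33 to 0.56). The remaining 6 members of Taf1d ran from 0.04 (Gm24299) to 0.90 (Gm22620), each with an interval that covered 0. Scarna9, in the same host as Gm24339, was at 0.25 (-0.30 to 0.79). The Taf1d transcript itself was at 0.28 (0.17 to 0.40) and Cep295 at 0.03 (-0.08 to 0.15). All 8 Taf1d members overlap annotated exons of Taf1d, whereas Gm24339 lies in an intron of Cep295.

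**Figure D3:**
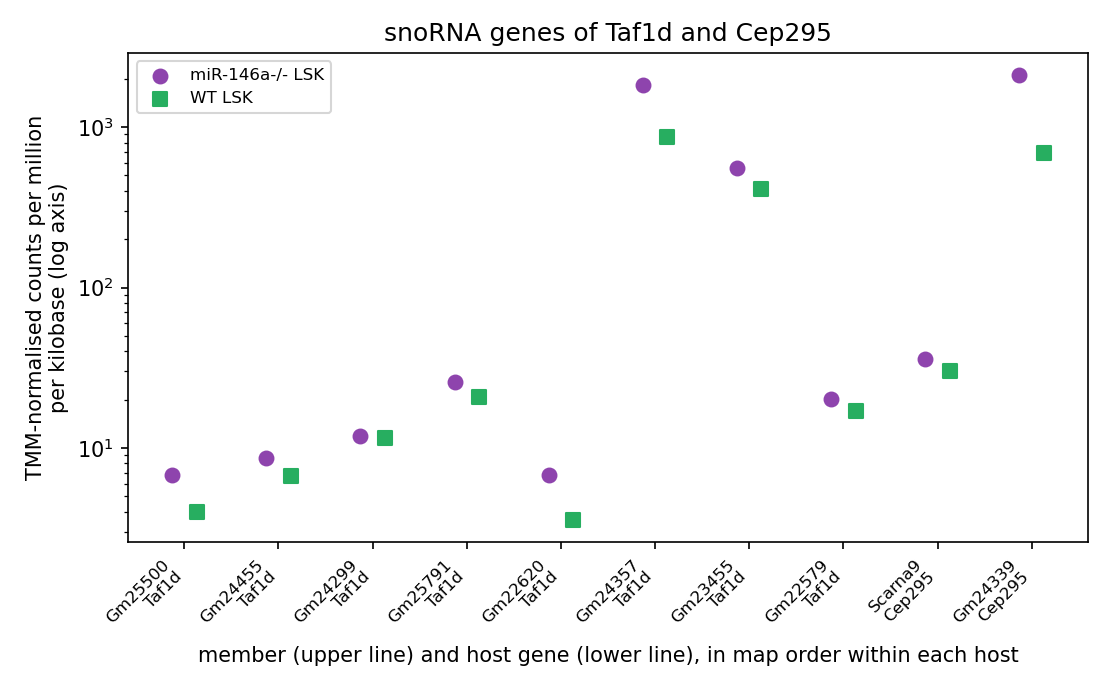
TMM-normalised CPM per kilobase (log axis) of the 8 members of Taf1d and the 2 of Cep295, with miR-146a-/- as circles and WT as squares. Gm24339 and Gm24357 are the most abundant, and within Taf1d the levels in miR-146a-/- run from 6.74 (Gm22620) to 1818 (Gm24357).

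Host genes were set beside the snoRNAs they hold, since most intronic snoRNAs come from the host's own transcript. Hosts were assigned by position alone, which does not show that a member is made from its host. The pairs include the 3 Rnu3b members in Tex14, which had 12 counts in miR-146a-/- and 20 in WT. Of 122 members, 115 lay whole within a gene on the same strand, 79 of them in an intron and 36 over an exon, in 79 hosts. For 111 members in 76 hosts the host was measured. None of the 76 hosts was called higher and 1, Rcc1, was called lower; their median was -0.09. The snoRNA ratio lay above that of its host in 84 of 111 pairs and below in 27, with a median difference of 0.48. Intervals of snoRNA and host were apart in 33 pairs, 32 with the snoRNA above and 1, Scarna10, with it below. A scaling of the libraries moves a snoRNA gene and its host alike, so by construction this split is the same by total counts. Pairs that share a host are not independent. Members and hosts also differ in depth: the median member had 49 counts, and the hosts of 107 members had at least 200. Measured genes other than snoRNA had a median of 0.24 at 20 to 200 counts and -0.04 above 200. The part of depth in the split of pairs was not tested. Where the snoRNA had at least 100 counts, it lay above its host in 23 of 30 pairs, with a median difference of 0.39.

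**Figure D4:**
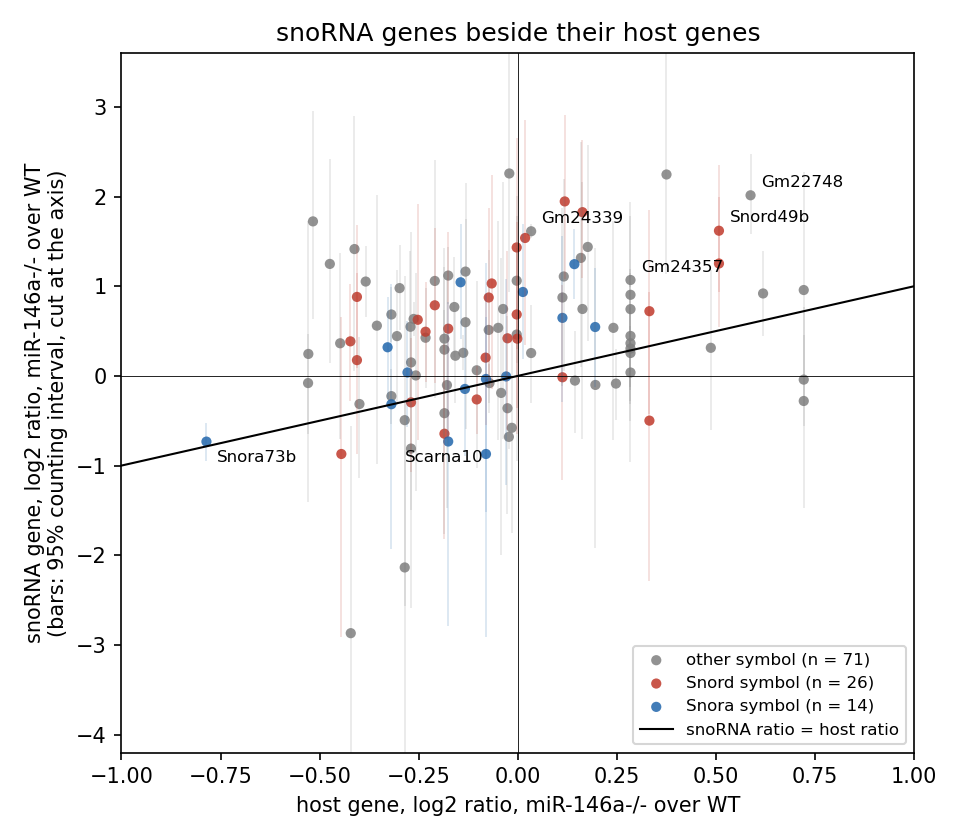
Log2 ratio of each of 111 snoRNA genes (vertical axis, with its 95% counting interval) against that of its measured host gene (horizontal axis). Host ratios stay between -0.79 and 0.72, the latter for Tex14 with few counts (-0.42 to 1.84). The snoRNA ratios spread from -2.87 to 2.26 and lie above the line of equal ratios in 84 pairs.

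By class, the snoRNA stood above its host in 20 of 26 Snord pairs (median difference 0.71), 11 of 14 Snora pairs (0.18) and 53 of 71 pairs with other symbols (0.46). Across the 111 pairs the snoRNA and host ratios had a Pearson correlation of 0.28 and a Spearman correlation of 0.27, as a description of genes that share both libraries. Among the 30 pairs whose snoRNA had at least 100 counts, the values were 0.31 and 0.15.

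Ribosomal protein genes held 30 members in 18 hosts. These members had a median ratio of 0.37 where the 18 hosts had a median of -0.21, and 23 of 30 lay above the host. The levels of these members per kilobase, over both libraries, were below the exonic level of the host in 30 of 30 pairs, against 49 of 74 pairs in other protein-coding hosts. Gm24044, in Rpsa, was at 0.68 (0.38 to 0.99, not called) with its host at -0.32, whereas Gm26448 in the same host was at -0.23. Rpl3 was at -0.23, with its members Snord83b at 0.49 and Gm22077 at 0.43. Nop58, which encodes a core protein of box C/D particles, had 2247 counts in miR-146a-/- and 6276 in WT, a ratio of -0.0029, and holds 4 members, from 0.46 (Gm26287) to 1.43 (Snord11), of 24 to 44 counts. In Rpl4, whose ratio was -0.19, the 4 members ran from -0.64 (Snord16a) to 0.41 (Gm23136).

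Genes on a list made by symbol, chiefly for RNAs that serve cleavage or folding of the ribosomal precursor, had ratios on both sides of 0. The table held 15 genes of this list, of which 8 were members and 5 had 0 counts in both libraries. Snord118, the U8 RNA needed for maturation of the large subunit RNAs, had 15.7 normalised CPM (262 counts) in miR-146a-/- and 7.44 (347 counts) in WT, a ratio of 1.07 (0.84 to 1.31). Snord13, which guides acetylation of the small subunit RNA, had 38 counts in miR-146a-/- and 35 in WT (1.58, 0.90 to 2.30). Both were higher, and neither has a host in the annotation. Snord118 has a copy, Gm24208, of 95.6% identity.

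The U3 RNA comes from Rnu3a and from the Rnu3b genes, which are 85.1% to 85.2% identical to Rnu3a. Rnu3a, which has a copy of 99.5% identity in the annotation, had 110 counts in miR-146a-/- and 300 in WT (0.03, -0.30 to 0.35). The 3 Rnu3b members, which may share reads as copies of one another, together had 66 counts in miR-146a-/- and 180 in WT (0.03, -0.40 to 0.45). Snord14a, the U14 RNA of Rps13, was at 0.20 (-0.55 to 0.92). Snora73b, a U17 RNA, was at -0.73, not called, beside its host Rcc1 at -0.79 (the exchange factor of the GTPase Ran). Its copy Snora73a, 96.6% identical, had 2 counts in miR-146a-/- and 12 in WT.

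The median ratio was higher among short than among long snoRNAs. Of 47 members under 100 bases, 6 were higher (12.8%), with a median ratio of 0.53. Of 61 members of 100 to under 150 bases 9 were higher (14.8%), with a median of 0.44. Over all measured genes 5.35% were higher. Of 14 members of 150 bases or more, 0 were higher or lower, and the median was -0.14. The groups differ in depth, with median counts of 45 under 100 bases, 47 from 100 to under 150 and 258.5 from 150. Ratio and length had a Pearson correlation of -0.30 and a Spearman correlation of -0.23 over the 122 members, and -0.47 for both over the 36 members with at least 100 counts. Ratio and GC content had correlations of -0.25 and -0.24. These describe genes of the same pair of libraries, and length goes with class, since all Snora members were at least 127 bases long.

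**Figure D5:**
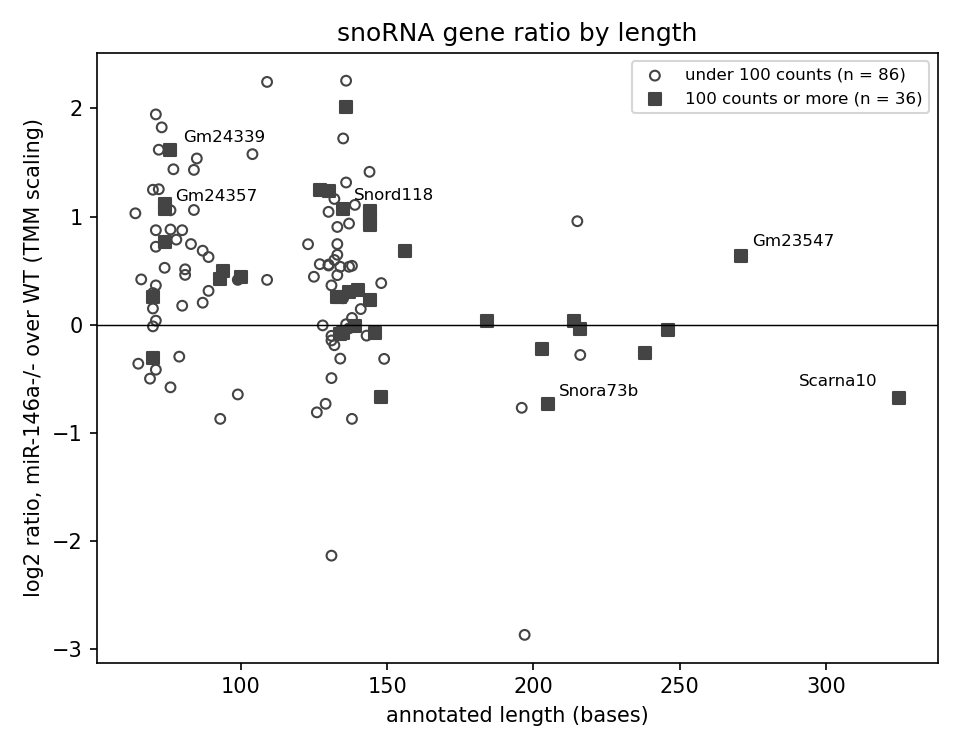
Log2 ratio of miR-146a-/- over WT against annotated length for the 122 snoRNA genes, with filled squares for those with at least 100 counts. The 14 members of 150 bases or more lie mostly at or below 0, with a median of -0.14.

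Many snoRNA genes of well-expressed hosts had no counts at all. Of 319 snoRNA genes whose host had at least 200 counts, 89 had 0 counts in both libraries. The share was 10.1% for 199 genes in an intron and 57.5% for 120 genes over an annotated exon of the host. Gas5, a non-coding host with 3974 counts in miR-146a-/- and 8000 in WT, had 0 counts for all 9 of its snoRNA genes, as did Snord33 and Snord34 in the ribosomal protein gene Rpl13a. How reads over both a snoRNA gene and an exon were counted is not given in the sources used here, so a count of 0 does not show that the RNA is missing. The imprinted clusters of brain-enriched snoRNAs gave 1 count in 1 of 220 genes and no member.

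The genes of the snoRNA particle had medians at or below that of all measured genes, -0.01. Of the box C/D core genes Fbl, Nop56, Nop58 and Snu13, 0 of 4 were called, and their median was -0.06. Of the box H/ACA core genes Dkc1, Gar1, Nhp2 and Nop10, 1 of 4 was lower, and the median was -0.48. All 4 had a negative ratio, as did 53.4% of measured protein-coding genes. The lower one, Nhp2, had 315 counts in miR-146a-/- and 1642 in WT (-0.90, -1.08 to -0.73). Dkc1, the pseudouridine synthase, was at -0.41 (-0.49 to -0.33), and Fbl, the methyltransferase, at -0.36 (-0.44 to -0.27). By total counts these ratios, like those of all genes, are lower still.

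Assembly and processing genes were not called. Of 11 assembly factors 0 were called and 11 had a negative ratio, against 53.4% of measured protein-coding genes. Their median was -0.24, and 7 had an interval wholly below 0. Shq1, a dyskerin chaperone, was at -0.79 and the helicase Ruvbl1 at -0.52. Of 12 genes of snoRNA trimming and decay 0 were called, with a median of -0.13. Among these the exonuclease Xrn1 was at 0.21, the poly(A) polymerase Tent4b at 0.20, the exosome helicase Mtrex at -0.43 and the debranching enzyme Dbr1 at -0.18. Of 5 Cajal body genes 0 were called, with a median of -0.49, from Wrap53 at -0.60 to Smn1 at 0.28. Of the non-coding snoRNA host genes (Gas5 and the Snhg genes), 9 of 12 were measured and 0 called, with a median of 0.03. Gas5 was at 0.47 and Snhg12 at 0.35, against -0.56 for Snhg6 and -0.31 for Snhg20.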

How the data were processed

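RNA was measured in 2 LSK libraries, 1 per genotype. The authors deposited whole-number read counts per Ensembl gene without normalisation. Per the file headers, junction alignments were placed on the genome and duplicates flagged; the counting program, its use of strand and its treatment of duplicates remain not given in the sources used here. STAR 2.5.3a and Salmon 0.9.0, with the mm10 build, stand in the submitters' processing notes without a role.

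GENCODE M21 supplied symbols, classes, positions and sequences; 37693 of 39017 identifiers had a symbol. Genes with at least 20 counts summed were called measured. Library sizes were scaled by TMM in edgeR 4.0.16 (R 4.3.3). Having a single library of each genotype, the data allow no quasi-likelihood test, and no p-value is given. Log2 ratios used a prior count of 0.5. Intervals are 95% Clopper-Pearson intervals of the share of counts, computed in SciPy 1.17.1. They reflect counting error alone, with each read taken as independent. Reads lacking molecular identifiers may be copies of 1 molecule, in which case the intervals are too narrow. The calculation was checked on simulated counts.

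The host was the same-strand gene that holds the whole snoRNA gene, protein-coding first, then the shortest. Copies of at least 95% identity may share reads, as may overlapping genes. Such a copy exists for 19 members. Named genes are the 12 highest and 12 lowest by interval bound among members with at least 50 counts, the 6 most abundant per length, fixed lists and hosts; others, such as Snord61, Gm23946 and Gm22154, were chosen after their values were seen. Members and lists were chosen with earlier results of these data known. The alternatives tried were scaling by upper quartile, by total counts, by DESeq2 1.42.0 and over protein-coding genes, other count filters, folds and priors, and subsets of members.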

Additional observations from a re-analysis of the deposited data

How the results depend on the processing

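No paired analysis was possible because each genotype had 1 library. DESeq2, upper-quartile and protein-coding TMM scaling also called 15 genes higher and 0 lower. By total counts 2 genes were higher and 11 lower, and medians were -0.38 for all members, -0.17 for Snord, -0.80 for Snora and -0.38 for other symbols. With at least 200 counts 6 of 20 genes were higher, medians were 0.14 for all, -0.26 for Snord and -0.34 for Snora, the Snora minus Snord difference was -0.078 and the snoRNA minus host difference 0.39. The 2-fold interval called 5 higher, fewer by construction. The point ratio beyond 2-fold, which takes no account of the interval, called 28 higher and 2 lower. With at least 10 counts the medians were 0.36 for all and 0.34 for other symbols. With no filter they were 0.31 and 0.29, and the host difference was 0.38. A prior count of 5 gave medians of 0.35 for all, 0.47 for Snord and 0.34 for other symbols, and a host difference of 0.43. Members in no exon of another gene had a median of 0.48 and, chosen after the data were seen, a host difference of 0.58. That difference was also 0.58 with hosts of at least 200 counts and 0.62 with 1 value per host. Except for construction as stated and fewer genes under filters, the cause was not tested. Of 26 named genes, total counts moved 9 to a call and 9 out of one, with no change of sign of a call; the 2-fold interval moved 8 out. Without the 3 most abundant members, also chosen after the data were seen, 13 genes were higher and the summed log2 ratio was 0.35. In the same range of length, 127 to 205 bases, only 2 Snord genes remained. Depth limits the rest: 86 members had under 100 counts.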

Other observations

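Other small RNAs of the nucleus and nucleolus, in the same libraries, had ratios on both sides of 0, with scaRNA and snRNA medians above 0. Of 10 measured scaRNA genes, guides of the Cajal body, 3 were higher (30%) and 0 lower. Over all measured genes 5.35% were higher and 1.53% lower. The median log2 ratio of the scaRNA genes was 0.24, with 7 above 0 and 3 below. Among the 3 below were Gm25395 at -0.67 (-0.91 to -0.43) and Gm22442 at -0.21 (-0.40 to -0.02). Gm23119 had 96.4 normalised CPM in miR-146a-/- and 44.9 in WT (1.10, 1.01 to 1.20), Scarna2 was at 0.41 (0.37 to 0.45) and Scarna13 at 0.06 (-0.07 to 0.17). Of 34 snRNA genes, 5 were higher (14.7%) and 0 lower, and the median was 0.80. Rmrp, the RNA of the MRP enzyme that cuts the ribosomal precursor, had 2400 normalised CPM in miR-146a-/- and 1499 in WT (0.68, 0.66 to 0.70). Rpph1, the RNA of RNase P, had 1409 in miR-146a-/- and 1825 in WT (-0.37, -0.39 to -0.35). Rn7sk was at -0.49 (-0.50 to -0.47), and Terc, the telomerase RNA, which carries an H/ACA domain, at -0.37 (-0.67 to -0.07). As for the snoRNA genes, these ratios are relative to TMM scaling and come from 1 library per genotype.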
